A study of Mus musculus with 6 samples.

Results

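Mitochondrially encoded mRNAs were compared between 2 mouse cell lines by direct RNA sequencing, in which a nanopore reads the RNA molecule itself. The members were 10 genes of the mitochondrial chromosome, chosen by symbol: mt-Nd1, mt-Nd2, mt-Nd4, mt-Nd5, mt-Nd6, mt-Cytb, mt-Co1, mt-Co2, mt-Co3 and mt-Atp6. All 10 had a row in the deposited table of 34724 genes. The symbols of 13 rows began with mt-, and the other 3 were mt-Nd3, mt-Nd4l and mt-Atp8. The line 2H-11 is described in the labels as tumor endothelial and the line SVEC4-10 as normal endothelial, with 3 libraries of each and no treatment named. Both lines were SV40-transformed, came from the axillary lymph node of adult C3H/HeJ mice and were prepared from 1 ug of total RNA per library. With 1 line per status, the effects of status and of line cannot be told apart. Separate cultures are not named for the libraries, and p-values therefore measure only their spread, which may be technical.

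The mitochondrial genome encodes 13 proteins, all of them core subunits of the respiratory chain or of ATP synthase. Both strands are transcribed as long precursors, and most mRNAs are released where tRNAs are cut out between them and are then polyadenylated by a mitochondrial poly(A) polymerase. mt-Nd6 is the only protein-coding gene on the light-strand template and lies opposite the region downstream of mt-Nd5. In human cells its mRNA is known to carry no poly(A) tail, whereas the mouse mt-Nd5 transcript is known to run on through the region opposite mt-Nd6. The kit used here captures RNA by its poly(A) tail.

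In GENCODE M21 on GRCm38, 9 of the 10 members lie on the plus strand of chromosome M and mt-Nd6 lies on the minus strand. In 3 members the annotated gene stops 1 base into the last codon, and the poly(A) tail completes it. The last 30 bases of those 3 members are shown with this base in capitals, each on the plus strand and ending at position 11544 (mt-Nd4), 15288 (mt-Cytb) and 9390 (mt-Co3).
mt-Nd4: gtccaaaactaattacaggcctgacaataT
mt-Cytb: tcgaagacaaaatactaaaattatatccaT
mt-Co3: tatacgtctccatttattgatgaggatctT
The other 7 members end in a full stop codon in the annotation, as mt-Co2 does at position 7696. In 2 of them the last 2 bases of that codon also belong to a tRNA gene on the same strand. These are mt-Nd1 (3706 to 3707, mt-Ti) and mt-Nd2 (4950 to 4951, mt-Tw). Whether their mRNAs keep these bases was not tested.
mt-Co2: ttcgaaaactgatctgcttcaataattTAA

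Genes of this chromosome overlap, and the overlaps bear on which gene a read is counted for. Among protein-coding genes there were 4 overlaps, of which 3 were on the same strand. mt-Atp8 and mt-Atp6 share 43 bases (7927 to 7969), mt-Nd4l and mt-Nd4 share 7 (10167 to 10173), and mt-Atp6 and mt-Co3 share 1 (8607). Each of the first 2 pairs is known to be carried on a shared mature transcript, so its reads could be counted for either gene, whereas mt-Atp6 and mt-Co3 are known to be cut apart. mt-Nd5 and mt-Nd6 are the only pair on opposite strands and share 14 bases (13552 to 13565). The shared bases are in capitals in chrM:13537-13580 (mt-Nd5 and mt-Nd6) and chrM:10152-10188 (mt-Nd4l and mt-Nd4), both read on the plus strand.
mt-Nd5 and mt-Nd6: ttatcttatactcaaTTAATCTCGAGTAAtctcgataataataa
mt-Nd4l and mt-Nd4: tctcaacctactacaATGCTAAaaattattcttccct
Whether the authors' counting used the strand of a read is not given in the sources used here. Without strand, reads of mt-Nd5 and mt-Nd6 cannot be told apart over these 14 bases. As the mouse mt-Nd5 transcript is known to run on opposite mt-Nd6, the same holds over the region of mt-Nd6 it covers. The counts of both genes are therefore uncertain.

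Total counts ran from 3628400 to 16798666 per library, and SVEC4-10 replicate 3 was the deepest. Levels are given in CPM, a gene's count per 1e6 counts of its library, and ± marks the SD of a line's 3 libraries (n = 3). Of 12 genes that define endothelial cells, 10 stayed under 1 CPM in each of the 6 libraries. Among these, 6 were without any count, Vwf, Tie1, Cldn5, Erg, Emcn and Icam2, so the markers gave the labelled cell type little support. The exceptions were higher in 2H-11, Eng (9.61 ± 2.60 against 2.45 ± 0.507 CPM, edgeR adjusted p = 0.000343) and Egfl7 (5.40 ± 1.35 against 0.787 ± 0.0745 CPM, adjusted p = 6.44e-05). The 12 had summed CPM of 12.2 to 19.2 in 2H-11 and 2.80 to 4.13 in SVEC4-10. Summed levels of 8 epithelial and mesothelial markers were 58.5 to 72.7 CPM in 2H-11 libraries and 3165 to 4071 CPM in SVEC4-10 libraries. Of 6 tested, 1 was higher and 5 were lower in 2H-11, beside 20.1% higher and 16.2% lower among all genes tested. Upk1b was at 0.434 ± 0.228 against 1387 ± 87.4 CPM and Upk3b at 0.644 ± 0.248 against 1402 ± 407 CPM. Summed levels of 11 fibroblast and mural markers were 1832 to 2347 CPM in 2H-11 and 2087 to 2195 CPM in SVEC4-10. Behind these near sums single markers went opposite ways: of 9 tested, 6 were higher in 2H-11 and 1 was lower. Thy1 was at 39.5 ± 5.16 CPM in 2H-11 without a count in SVEC4-10 (edgeR adjusted p = 2.40e-10), and Dcn at 13.8 ± 2.59 against 307 ± 52.4 CPM (adjusted p = 1.37e-11). The 7 leukocyte markers had summed CPM of 0.558 to 3.17 in 2H-11 and 0 to 3.86 in SVEC4-10. The part of these differences in the mitochondrial results was not tested. A lower level cannot be told apart from fewer cells with the transcript.

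The 10 members together made up 2.31, 2.10 and 1.81% of all counts in 2H-11 replicates 1 to 3, and 1.498, 1.701 and 1.999% in SVEC4-10 replicates 1 to 3. Their summed level in CPM was 20739 ± 2511 for 2H-11 and 17327 ± 2516 for SVEC4-10, 1.20 times as high in 2H-11. The lines overlapped, since 2H-11 replicate 3 lay below SVEC4-10 replicate 3. The difference did not pass a two-sided exact permutation test over the libraries (p = 0.20), in which 3 against 3 allows no p below 0.10. It was 3412 CPM, and 2075 CPM when libraries were scaled with TMM, edgeR's correction for composition (p = 0.50 in the same permutation test). Leaving out 2H-11 replicate 1 or SVEC4-10 replicate 1 lowered the difference to 2237 and 2240 CPM. The higher sum in 2H-11 rested on mt-Nd6 and mt-Nd1, not on the members as a group. With mt-Nd6 left out, 2H-11 reached 8475 ± 1512 CPM against 8070 ± 1017 in SVEC4-10, a ratio of 1.05 (exact permutation p = 0.60). With mt-Nd1 left out as well, the direction turned and the ratio was 0.919 (exact permutation p = 0.20). The lines overlapped in both cases.

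The levels of the members ran from 0.487 to 13016 CPM, as the plot of levels by library shows, and 4 genes held nearly all the reads. mt-Nd6, mt-Cytb, mt-Co1 and mt-Nd1 together took between 96.9 and 98.5% of the counts of the 10 members in each library. Per kilobase of gene, mt-Nd6 stood first in all 6 libraries, at 15153 to 25078 CPM per kb, above every library of any other member. mt-Cytb followed (2036 to 3357 CPM per kb), then mt-Nd1 (1219 to 3972) and mt-Co1 (1489 to 1769), and these 3 overlapped with their neighbours in the order. mt-Co3 (106 to 219 CPM per kb) and mt-Nd4 (92.4 to 132) came next, overlapping with each other. mt-Atp6 (57.2 to 91.3) and mt-Nd2 (49.0 to 67.8) also overlapped. mt-Nd5 (1.60 to 7.65 CPM per kb) and mt-Co2 (0.712 to 3.66) were last, with mt-Nd5 above mt-Co2 in all 6 libraries. A nanopore read covers a molecule once whatever its length, so the order is also given without length. By mean CPM in 2H-11 it was mt-Nd6, mt-Cytb, mt-Nd1, mt-Co1, mt-Nd4, mt-Co3, mt-Nd2, mt-Atp6, mt-Nd5 and mt-Co2.

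**Figure D1:**
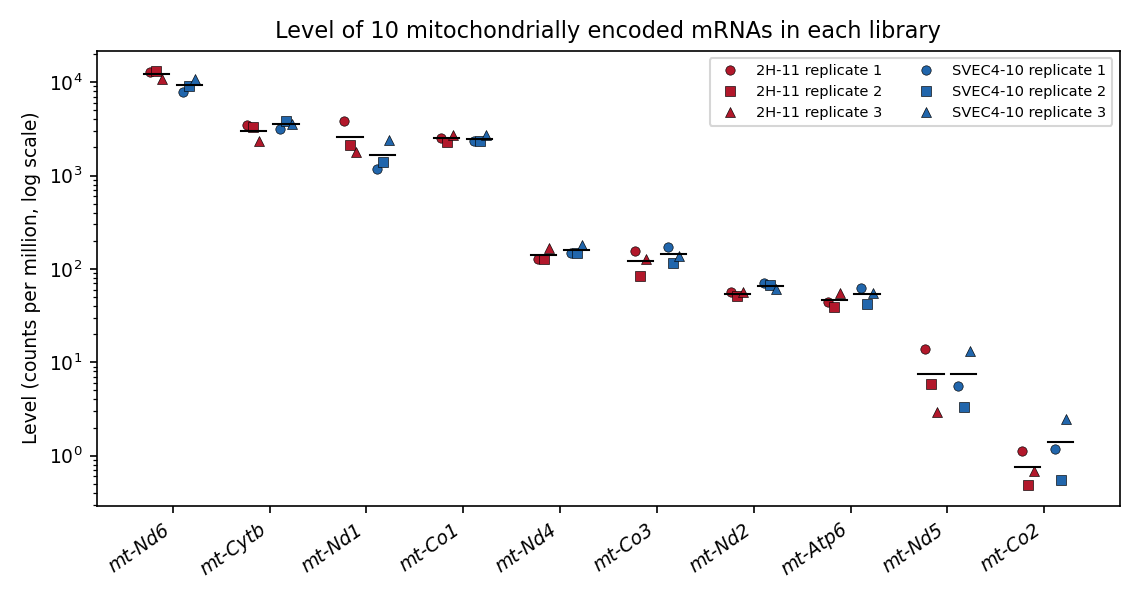
Level in CPM (log axis) of the 10 members, with a point for each library and a bar at the mean of each line (n = 3). mt-Nd6 lies between 7865 and 13016 CPM and mt-Co2 between 0.487 and 2.50 CPM, while the points of the lines overlap for all members but mt-Nd6 and mt-Nd2.

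mt-Nd6, a subunit of the membrane arm of complex I (NADH dehydrogenase), ranked between place 2 and place 5 by count among all genes of each library. It was at 12926, 13016 and 10848 CPM in 2H-11 replicates 1 to 3. In SVEC4-10 replicates 1 to 3 it was at 7865, 9061 and 10844 CPM. In CPM all 2H-11 libraries lay above all SVEC4-10 libraries, but the lowest of the first and the highest of the second were nearly level. The TMM factor was 1.001 for 2H-11 replicate 3 and 0.966 for SVEC4-10 replicate 3. Dividing by these factors puts SVEC4-10 replicate 3 higher, so with TMM the lines overlap. mt-Nd5, another membrane-arm subunit of complex I, was at 14.0, 5.85 and 2.92 CPM in 2H-11 and at 5.61, 3.31 and 13.3 CPM in SVEC4-10. Its highest values were in 2H-11 replicate 1 and SVEC4-10 replicate 3, and the lines overlapped. The count of mt-Nd6 was 813 to 3718 times that of mt-Nd5, depending on the library. Because the strand used in counting is not given, their sum is also shown. It does not depend on how reads were divided between them, provided that each read was counted once, which is not given either. The sum in CPM was 12271 ± 1230 for 2H-11 and 9264 ± 1503 for SVEC4-10, and the lines overlapped (two-sided exact permutation p = 0.20).

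The remaining complex I members differed in how steady they were. mt-Nd1, which lies at the base of the membrane arm, was at 3801, 2126 and 1783 CPM in 2H-11 and at 1166, 1397 and 2378 CPM in SVEC4-10. Its coefficient of variation was 42.0% in 2H-11 and 39.1% in SVEC4-10, and 2H-11 replicate 1 and SVEC4-10 replicate 3 were again the highest of their line. mt-Nd2, a proton-pumping subunit, was at 56.0, 50.9 and 56.5 CPM in 2H-11 and at 70.4, 66.4 and 61.2 CPM in SVEC4-10. All its SVEC4-10 libraries lay above all 2H-11 libraries, and its coefficients of variation of 5.66 and 6.96% were the lowest of the members in either line. mt-Nd4, also a proton-pumping subunit, was at 128, 127 and 169 CPM in 2H-11 and at 148, 148 and 181 CPM in SVEC4-10, with overlap.

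mt-Cytb is the only member in complex III (the cytochrome bc1 complex), where it holds the quinone sites. It was at 3452, 3283 and 2329 CPM in 2H-11 and at 3148, 3840 and 3578 CPM in SVEC4-10. The lines overlapped, and 2H-11 replicate 3 was the lowest library of all.

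The 3 catalytic-core subunits of cytochrome c oxidase (complex IV) were counted at very different levels. mt-Co1, which holds the haem a3 and copper centre, was at 2512, 2300 and 2723 CPM in 2H-11 and at 2344, 2337 and 2733 CPM in SVEC4-10. Its highest library was 1.19 times its lowest, the smallest such ratio among the 10 members. mt-Co3 was at 155, 83.1 and 127 CPM in 2H-11 and at 172, 117 and 139 CPM in SVEC4-10, with overlap. mt-Co2, which takes electrons from cytochrome c, had 6, 2 and 4 counts in 2H-11 and 5, 2 and 42 counts in SVEC4-10. Summed over a line it was at 0.784 CPM in 2H-11 (95% exact Poisson interval 0.405 to 1.37) and 1.98 CPM in SVEC4-10 (1.47 to 2.62); such intervals cover counting error only. Of the 49 counts in SVEC4-10, 42 were in replicate 3. In the same libraries mt-Co1 had 1093 to 4722 times the count of mt-Co2.

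mt-Atp6, the proton-channel subunit of ATP synthase, was at 43.9, 39.0 and 55.8 CPM in 2H-11 and at 62.2, 42.2 and 55.8 CPM in SVEC4-10. The lines overlapped. mt-Atp8, which shares a transcript with mt-Atp6, had no count in any library, which allows a level of at most 0.196 CPM for 2H-11 and 0.121 for SVEC4-10 over the summed libraries of a line (3 counts). That limit covers only reads assigned to mt-Atp8 and says nothing of its transcript, since reads shared with mt-Atp6 could have been counted there. mt-Nd4l, which shares a transcript with mt-Nd4, had 1, 1 and 6 counts in 2H-11 and 4, 2 and 4 in SVEC4-10. mt-Nd3 had no count in replicate 1 of either line, 67 and 74 counts in 2H-11 replicates 2 and 3, and 41 and 16 in SVEC4-10 replicates 2 and 3. Its log2 fold change of 1.41 (SE 0.97) did not pass the edgeR test described further on (adjusted p = 0.282), but it passed in 4 of 15 alternative fits, among them without a filter (adjusted p = 0.00169), without 2H-11 replicate 1 (adjusted p = 0.0297) and without SVEC4-10 replicate 2 (adjusted p = 0.0135).

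The low levels of several members were set beside copies of mitochondrial DNA in the nuclear genome. In the annotation 7 pseudogenes on chromosome 1, from 24611535 to 24616197, copy a stretch of the mitochondrial chromosome, and a read from it could be placed at either site. Gm28661 equals mt-Co2 over 681 bases (99.6% of the gene), Gm10925 equals mt-Atp6 over 678 bases (99.6%) and Gm28437 equals mt-Co3 over 783 bases (99.9%), in each case without a mismatch. Gm28439 equals mt-Nd4 over 876 bases (63.6%), and Gm29216 matches mt-Co1 over 483 bases (31.3%). The first 60 bases of mt-Co2 (chrM:7013-7072, plus strand) read the same in Gm28661 (chr1:24615506-24615565, minus strand).
mt-Co2: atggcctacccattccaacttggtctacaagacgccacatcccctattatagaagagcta
Gm28661: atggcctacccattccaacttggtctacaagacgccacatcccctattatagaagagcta
The closest annotated copies of mt-Nd6 and mt-Cytb, Gm11408 and Gm11410 on chromosome 4, are more diverged, with 93.6 and 92.9% identity. Their first 60 aligned bases are shown for mt-Nd6 (chrM:14011-14070, minus strand) and Gm11408 (chr4:80003855-80003914, minus strand), with the 2 mismatches in capitals.
mt-Nd6: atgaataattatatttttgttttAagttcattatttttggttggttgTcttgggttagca
Gm11408: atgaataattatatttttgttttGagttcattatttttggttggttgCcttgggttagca
mt-Cytb (chrM:14146-14205, plus strand) and Gm11410 (chr4:80003990-80004049, plus strand) are shown likewise, with 3 mismatches.
mt-Cytb: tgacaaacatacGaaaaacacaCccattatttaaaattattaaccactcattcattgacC
Gm11410: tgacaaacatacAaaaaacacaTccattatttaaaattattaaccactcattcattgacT

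The 4 members copied at 99.5% identity or more over most of their length, mt-Nd4, mt-Co3, mt-Atp6 and mt-Co2, had levels between 0.487 and 181 CPM in every library. mt-Nd6, mt-Cytb, mt-Nd1 and mt-Co1, with no such copy or, for mt-Co1, one over 31.3% of the gene, had 1166 CPM or more. mt-Nd2 and mt-Nd5 went against this division, at 50.9 to 70.4 and 2.92 to 14.0 CPM without a copy of that identity. A copy of lower identity covers all of mt-Co1, Gm13340 on chromosome 2, with 97.6% identity and 37 mismatches over 1545 bases. The closest copy of mt-Nd2, Gm13339 on chromosome 2, has 96.7% identity over 49.1% of the gene, and that of mt-Nd5, Gm11407 on chromosome 4, 92.3% over 57.9%. The search took annotated transcripts only, and it found 17 nuclear genes with at least 90% identity over 100 bases or more. Of these 17 nuclear genes, 0 had a row in the deposited table, so their counts cannot be set beside those of the members. How reads with several matching places were counted is not given, and the part of the copies in these levels was not tested. ONT identifiers, given by the authors to loci without coordinates in the table, held 6.48 to 9.39% of counts, and whether any lie on mitochondrial DNA was not tested.

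**Figure D2:**
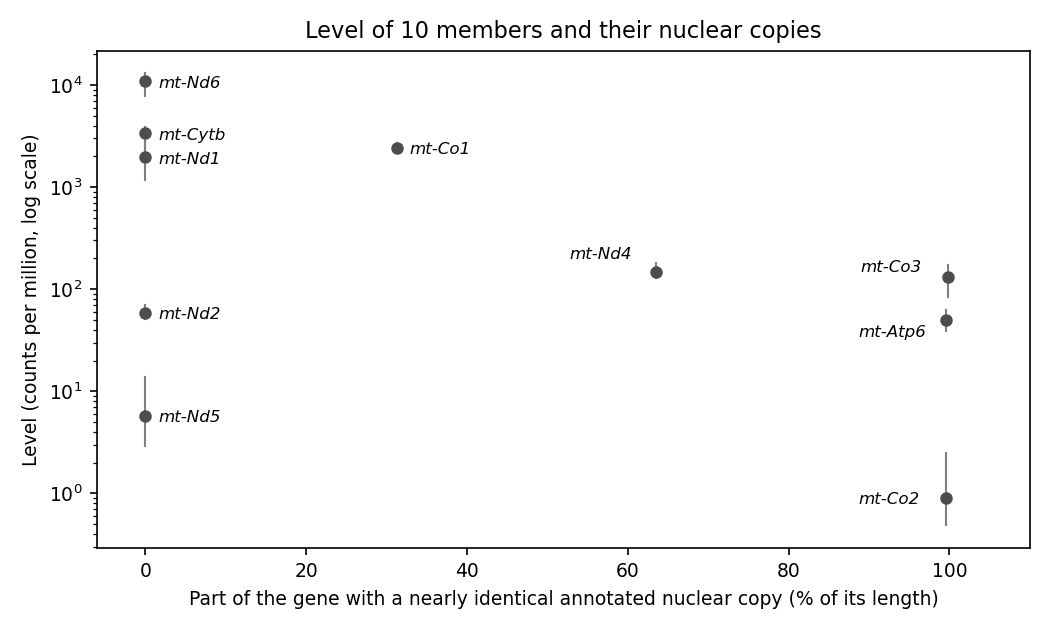
Level in CPM (log axis, point at the median and line from lowest to highest of the 6 libraries) against the percent of each member's length that is matched at 99.5% identity or more by an annotated nuclear copy. mt-Nd4, mt-Co3, mt-Atp6 and mt-Co2 lie to the right at 181 CPM or less, and mt-Nd2 and mt-Nd5 are low without such a copy.

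mt-Nd6 also differs from the other members in composition, as a light-strand gene. Its sense strand holds 28.1% G and 22.2% A, against 7.996 to 16.1% G and 29.5 to 36.9% A in the other 9. Its longest run of A was 3 bases, where the other members had runs of 4 (mt-Co2) to 8 (mt-Nd2).

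None of the members tested passed the threshold between the lines. In the edgeR quasi-likelihood test over 13187 genes, 36.2% of genes passed a Benjamini-Hochberg adjusted p of 0.05, 20.1% higher and 16.2% lower in 2H-11. Of the 10 members 9 had enough counts to be tested, all but mt-Co2, and 0 passed; at an unadjusted p under 0.05, which 44.6% of all genes met, the count was also 0, and DESeq2 and limma-voom called 0 too. The median log2 fold change (2H-11 over SVEC4-10) of the 9 was -0.26, beside 0.0024 for all genes tested. Of the 9, 2 had a value above 0 and 7 below. In CPM without TMM, 2 of the 9 did not overlap between the lines, mt-Nd6 and mt-Nd2. The share over all genes tested was 46.8% (28% higher and 18.8% lower in 2H-11). With TMM mt-Nd6 overlapped.

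mt-Nd1 had the largest value, with a log2 fold change of 0.53 (SE 0.26, adjusted p = 0.119), and mt-Nd6 followed with 0.30 (SE 0.16, adjusted p = 0.154). Below 0 were mt-Nd2 with -0.37 (SE 0.18, adjusted p = 0.130) and mt-Cytb with -0.33 (SE 0.17, adjusted p = 0.145). mt-Co3, mt-Atp6 and mt-Nd4 lay between -0.32 and -0.26, with SE of 0.18 to 0.21 and adjusted p of 0.264 to 0.302. mt-Co1 was nearest to 0 with -0.07 (SE 0.15, adjusted p = 0.760), and mt-Nd5 had the widest error with -0.20 (SE 0.47, adjusted p = 0.778). An adjusted p above the threshold does not show that the lines are alike at these genes. The direction of mt-Co1 turned when libraries were scaled by their totals alone (0.023) or when Ensembl identifiers alone were fitted (0.033).

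Single libraries decided some of these calls. mt-Nd1 passed without 2H-11 replicate 3 (log2 fold change 0.72, adjusted p = 0.0374) and without SVEC4-10 replicate 3 (0.85, adjusted p = 0.0195), and fell to 0.14 without 2H-11 replicate 1 (adjusted p = 0.678). mt-Cytb passed without SVEC4-10 replicate 1 (-0.48, adjusted p = 0.0275). mt-Nd5 changed direction without 2H-11 replicate 3 (0.17) and without SVEC4-10 replicate 3 (0.62). With libraries scaled by their totals alone, mt-Nd6 passed (0.41, adjusted p = 0.0239; range over the alternatives 0.0239 to 0.547).

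**Figure D3:**
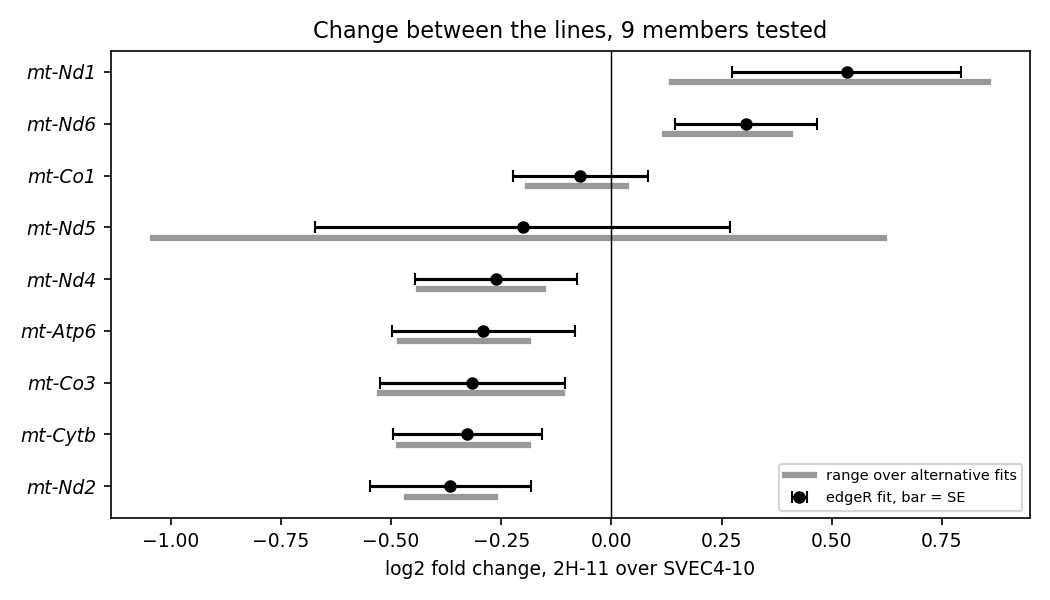
Log2 fold change of 2H-11 over SVEC4-10 for the 9 members tested, with the edgeR value as a point, its SE as a bar and the range over the alternative fits in grey. mt-Nd1 and mt-Nd6 lie above 0 and 6 members lie below 0 by more than mt-Co1, and the range of mt-Nd5 is the widest.

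The make-up of the mitochondrial reads was then compared as each member's share of the counts of the 10 members. These shares sum to 100% in a library, so they are not independent of each other. Their Wilson 95% intervals were at most 0.394 percentage points to either side, for counting error only. mt-Nd6 took 56.0, 61.9 and 59.95% in 2H-11 and 52.5, 53.3 and 54.3% in SVEC4-10. mt-Cytb took 14.95, 15.6 and 12.9% in 2H-11 and 21.01, 22.6 and 17.9% in SVEC4-10. These were the only members whose shares did not overlap between the lines, with mt-Nd6 on average 5.94 points higher while mt-Cytb fell by 6.02 points against SVEC4-10. Both reached the smallest p that 3 against 3 allows (two-sided exact permutation p = 0.10), and after Benjamini-Hochberg adjustment over the 10 members p was 0.375.

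Within each library the ratio of mt-Nd6 to mt-Cytb counts was 3.74 to 4.66 in 2H-11 and 2.36 to 3.03 in SVEC4-10. Both genes were taken for the ratio because their shares separated the lines, so it is a description of the same difference. Without mt-Nd6 in the denominator the share of mt-Cytb overlapped between the lines, at 34.0, 41.0 and 32.1% in 2H-11 and 44.2, 48.3 and 39.1% in SVEC4-10 (exact permutation p = 0.20). With mt-Nd6 included, leaving out any single library kept mt-Nd6 between 4.63 and 7.58 points higher in 2H-11, and the difference for mt-Cytb lay between -7.32 and -4.98 points.

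mt-Nd1 took 16.5, 10.1 and 9.85% in 2H-11 and 7.78, 8.21 and 11.9% in SVEC4-10, with overlap (exact permutation p = 0.40). mt-Co1 took 10.9, 10.9 and 15.05% in 2H-11 and 15.6, 13.7 and 13.7% in SVEC4-10, also with overlap (p = 0.30 in the same exact test). The share of mt-Nd1 was 9.52 points higher in 2H-11 as a share of the members without mt-Nd6, and 0.683 points higher without 2H-11 replicate 1. The other 6 members took small shares. mt-Nd4 held 0.698 ± 0.205% in 2H-11 and 0.922 ± 0.0616% in SVEC4-10, and mt-Co3 0.589 ± 0.168% and 0.844 ± 0.264%. mt-Nd2 held 0.266 ± 0.0403% and 0.389 ± 0.0817%, and mt-Atp6 0.228 ± 0.0697% and 0.314 ± 0.0888%. mt-Nd5 and mt-Co2 held at most 0.0667% in any library. None of the 6 separated the lines, and the unadjusted p of the exact permutation test was 0.20 to 0.70.

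**Figure D4:**
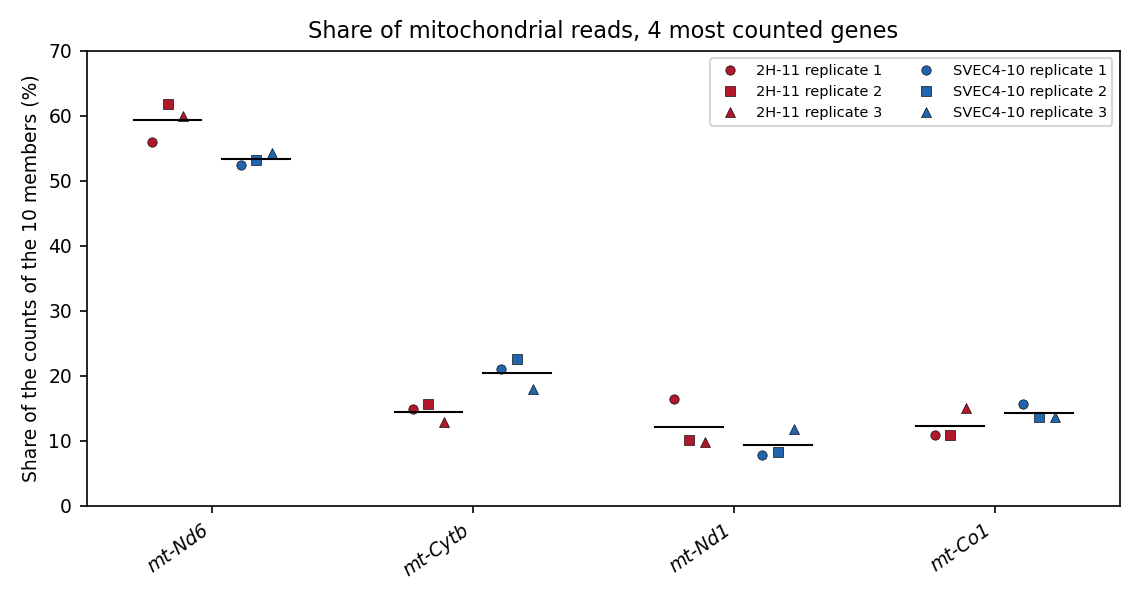
Share of the counts of the 10 members (percent) taken by the 4 most counted genes, with a point for each library and a bar at the mean of each line (n = 3). The 2H-11 libraries lie above the SVEC4-10 libraries for mt-Nd6 and below them for mt-Cytb, and the lines overlap for mt-Nd1 and mt-Co1.

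By complex, the 5 members of complex I took 73.3, 72.9 and 71.1% of the mitochondrial counts in 2H-11 and 61.8, 62.8 and 67.4% in SVEC4-10. These shares did not overlap, but the summed levels of the 5 did, at 15037 ± 2049 CPM for 2H-11 and 11136 ± 2149 for SVEC4-10 (exact permutation p = 0.20). This share rests on mt-Nd6 and mt-Nd1, the other 3 members of complex I being at 181 CPM or less. The 3 members of complex IV took 12.9 ± 2.49% in 2H-11 and 15.2 ± 1.38% in SVEC4-10, and the lines overlapped. Their summed level was nearly equal, at 2634 ± 235 CPM for 2H-11 and 2616 ± 227 for SVEC4-10 (exact permutation p = 1).

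The members did not vary over the 6 libraries as a unit. On the log2(CPM + 1) scale, each member centred on its own mean was set against the average of the 10. mt-Co1 stayed closest to that average (root mean square difference 0.161), and mt-Nd1 (0.448) and mt-Nd5 (0.582) were farthest. The level of mt-Co2 is near the added 1 CPM, which damps its variation on this scale (0.264). In CPM its highest library was 5.13 times its lowest, the largest such ratio among the 10 members. The average was highest in SVEC4-10 replicate 3 (0.30) and 2H-11 replicate 1 (0.23) and lowest in SVEC4-10 replicate 2 (-0.19). Among 2888 other genes at 50 CPM or more, the 5 closest to it were Kars (0.0800), Flna (0.0812), ONT.323 (0.0884), Sptbn1 (0.104) and Arpc4 (0.109). None of these 5 passed the threshold between the lines, which 36.2% of all genes tested passed. They were chosen as closest to an average that overlapped between the lines, so this count adds no support. This likeness is over 6 libraries only and is a description.

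Nuclear genes that serve the mitochondrial genome or share its complexes were tested as 9 lists. Over these lists, with 179 genes tested, 10 were higher and 24 lower in 2H-11 (19.0% called, beside 36.2% of all genes tested), and their median log2 fold change was -0.09. The counts rested in part on single libraries. Without 2H-11 replicate 2, 5 were higher and 11 lower; the count of higher genes was also 5 without SVEC4-10 replicate 3 and 6 without SVEC4-10 replicate 1. By library totals alone 17 were higher and 15 lower, and with Ensembl identifiers alone 16 and 14. In each of the 9 lists at least 1 of the counts moved by over 1.5 times under some alternative.

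Of 19 genes for transcription and replication of mitochondrial DNA, 1 was higher and 2 were lower. Tfam, which packages mitochondrial DNA and activates its promoters, was lower in 2H-11 (37.6 ± 2.94 CPM) than in SVEC4-10 (72.5 ± 7.36 CPM), with a log2 change of -1.04 (SE 0.19, adjusted p = 0.000279). Top1mt, the mitochondrial topoisomerase, was higher, at 21.2 ± 3.09 against 6.81 ± 1.03 CPM (adjusted p = 9.75e-05, log2 fold change 1.55 with SE 0.26). Of 21 genes for RNA processing and decay, 1 was higher and 2 were lower. Pnpt1, the mitochondrial polynucleotide phosphorylase, was at 45.5 ± 11.7 and 75.7 ± 11.4 CPM (adjusted p = 0.00516). Rexo2, an oligoribonuclease, was at 215 ± 24.1 and 141 ± 19.0 CPM (adjusted p = 0.0306) and lost its call in 6 of 15 alternative fits, among them those without 2H-11 replicate 2 or 3 and without SVEC4-10 replicate 1 or 3 (adjusted p = 0.0653 to 0.182).

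Of 18 genes for translation and membrane insertion, 1 was higher and 5 were lower. Mrrf, the ribosome recycling factor, was at 69.6 ± 6.69 CPM for 2H-11 and 106.7 ± 7.35 for SVEC4-10 (adjusted p = 0.00438). Mtrf1l, a release factor, was at 2.82 ± 0.534 and 6.30 ± 1.63 CPM (adjusted p = 0.0113), and lost its call in 1 of 15 alternatives, without 2H-11 replicate 2 (adjusted p = 0.0544). Of 38 assembly factors, 2 were higher and 5 were lower. Coa3, which stabilises newly made mt-Co1 protein, was at 113 ± 12.6 and 206 ± 29.6 CPM (adjusted p = 0.000391). Ndufaf3, a complex I assembly factor, was at 21.5 ± 1.90 and 37.7 ± 2.27 CPM (adjusted p = 0.00193). Of 7 regulators of mitochondrial gene expression, Myc alone passed, at 49.4 ± 9.85 and 67.4 ± 3.98 CPM (adjusted p = 0.0356), and lost its call in 7 of 15 alternatives, among them those without replicate 2 or 3 of either line (adjusted p = 0.0696 to 0.144). Gabpa was at 88.2 ± 12.0 and 60.1 ± 6.21 CPM (adjusted p = 0.0712), and passed in 3 of 15 alternatives, 1 of them without 2H-11 replicate 3 (adjusted p = 0.0394).

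Nuclear subunits of the complexes that hold the members went both ways. In complex I 1 of 36 was higher and 6 were lower, among them Ndufb11 (151 ± 15.4 and 260 ± 23.7 CPM, adjusted p = 0.000384) and Ndufv1, which binds the flavin (213 ± 10.5 and 312 ± 40.3 CPM, adjusted p = 0.00461). In complex III Uqcr11 was lower (323 ± 60.5 and 489 ± 15.4 CPM, adjusted p = 0.00403) and Uqcrh higher (327 ± 59.6 and 198 ± 16.7 CPM, adjusted p = 0.00829), and the other 7 of 9 did not pass. In complex IV 1 of 13 passed, Cox6c, at 1508 ± 241 and 938 ± 35.8 CPM (adjusted p = 0.00732), and Cox8a was at 1219 ± 151 and 1524 ± 201 CPM (adjusted p = 0.0551). Cox8a passed in 6 of 15 alternatives, among them limma-voom (adjusted p = 0.0393) and the fits without 2H-11 replicate 3 (0.0266), without SVEC4-10 replicate 1 (0.0130) and without SVEC4-10 replicate 2 (0.0330). In ATP synthase and its inhibitor 2 of 18 were higher and 2 lower. They included Atp5b, the catalytic beta subunit (1348 ± 60.5 and 1851 ± 118 CPM, adjusted p = 0.00603), and Atpif1, the inhibitor (570 ± 102 and 372 ± 41.6 CPM, adjusted p = 0.0209), which lost its call in 4 of 15 alternatives, those without replicate 2 or 3 of either line (adjusted p = 0.0714 to 0.120).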

How the data were processed

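Per the labels' protocols, RNA was taken with Trizol and libraries were made with the Oxford Nanopore direct RNA kit. The submitters' processing notes name the builds mm10 and GRCm38. How reads were aligned, filtered and counted, and with which annotation and strand setting, is not given in the sources used here. Raw read counts per gene were deposited by the authors, together with the same counts as CPM of the library total. Rows without a gene (13 broken lines) were dropped. Libraries had 3628400 to 16798666 counts.

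The comparison between the lines used the counts and edgeR 4.0.16 under R 4.3.3 (filterByExpr with minimum count 10 and minimum total 15, TMM, quasi-likelihood test, line as the only term, Benjamini-Hochberg adjusted p under 0.05); the code was tested on simulated data. Single values were compared with exact permutation tests. Gene positions and sequences came from GENCODE M21; nuclear copies were searched with BLAST 2.17.0 among its transcripts. The members and the lists of nuclear genes and markers were chosen with earlier results of these data known. From each list the 2 tested genes with the smallest p were named, and the 5 genes outside the mt- rows, at 50 CPM or more, closest to the members' average profile (pseudocount 1). Alternatives were a replicate block, DESeq2 1.42.0, limma-voom (limma 3.58.1), 3 other scalings, 2 other filters, Ensembl identifiers alone and leaving out each library; for shares, other denominators. Of the marker lists, sums are given, and single values for endothelial, fibroblast and mesothelial genes. Figures were drawn with matplotlib 3.10.9.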

Additional observations from a re-analysis of the deposited data

How the results depend on the processing

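The number of members called, 0 higher and 0 lower, became 1 higher by library totals alone (mt-Nd6), 1 higher and 1 lower without a filter (mt-Nd1, adjusted p = 0.0154, and mt-Cytb, 0.0388), and ranged from 0 to 1 in each direction over the fits without single libraries; under the 7 other alternatives it was 0. Over all genes, 2645 were higher and 2135 lower, and 1657 and 1631 with Ensembl identifiers alone; fewer genes, 10170, were then tested. Unfiltered, 26293 genes were tested. The fits without single libraries gave 2281 to 2929 higher and 1754 to 2220 lower. The log2 fold change of mt-Co1 reversed by library totals alone (0.023) and with Ensembl identifiers alone (0.033), that of mt-Nd5 without 2H-11 replicate 3 (0.17) and without SVEC4-10 replicate 3 (0.62; range without single libraries -1.04 to 0.62), and the share of mt-Nd5 in the same cases (0.00291 and 0.00634 points; range -0.0192 to 0.00634); the cause was not tested. The summed level stayed higher in 2H-11 under all alternatives, by 2075 to 4742 CPM, but these alternatives kept all 10 members. Without mt-Nd6 and mt-Nd1 the sum was lower in 2H-11 (5905 ± 450 against 6423 ± 422 CPM). The replicate numbers were not found to pair libraries (correlations of same-numbered deviations -0.018, 0.078 and -0.021, and 1 of 6 libraries correlated best with its own number); with the replicate block 0 members were called, mt-Nd3 (adjusted p = 0.0320) and Cox8a (0.0320) passed, Rexo2 (0.0531) and Myc (0.0622) did not, 2491 genes were higher and 1970 lower, the summed level gave an exact sign-flip p of 0.50, and the shares of mt-Nd6 and mt-Cytb gave 0.25, the smallest that 3 pairs allow. Library totals alone moved the median of all genes to 0.095 and the calls to 2931 higher and 1752 lower. The filter on low counts left mt-Co2, mt-Nd4l and mt-Atp8 out of the gene-wise test.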
